A study of Mus musculus with 4 samples.

Results

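The cytosolic ribosomal protein genes encode the protein parts of the large and the small subunit of the ribosome, and 90 of the 55453 genes in the count tables were members. They were chosen by symbol alone: Rpl or Rps followed by a number, with or without a letter or a paralog ending, together with Rplp0, Rplp1, Rplp2 and Rpsa, and without rows named as pseudogenes or as kinases of Rps6. Of these, 45 fell in the large subunit group, which by symbol takes in Rpl6l and Rpl32l, annotated as pseudogenes, 31 in the small subunit group, 3 in the P stalk group and 11 in a group of paralogs and tissue-restricted copies. The libraries came from mouse embryos treated with a control morpholino or with one against NKX1-2, a homeobox transcription factor, at the morula and at the blastocyst stage. Morpholinos are synthetic antisense molecules that pair with an RNA and keep it from being translated or spliced. Each stage had 2 plates of 96 wells, replicates 1 and 2, and each plate held 48 wells of either morpholino. The sources used here give no strain, genotype, age or number of embryos per plate. A well was kept if it had 2000 or more detected genes, which held for 368 of 384, and kept wells of the same plate and morpholino were added up into 8 sums of 1084312 to 2398605 counts. No label ties wells to embryos, so the plate was the replicate (n = 2 per stage). The plate was also a block, so p-values measure how the morpholino difference varies between the plates of a stage. This spread was pooled over both stages in the main fit and may be technical. In such sums, fewer cells of a type and less RNA per cell cannot be told apart.

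A ribosome holds 1 copy of nearly every ribosomal protein, and its subunits are assembled from these proteins and ribosomal RNA in the nucleolus. The messenger RNAs of these proteins start with a run of pyrimidines, the 5′ terminal oligopyrimidine (TOP) motif, through which their translation is controlled together by mTORC1 signalling and the RNA-binding protein LARP1. In the preimplantation embryo, ribosomes laid down in the oocyte are replaced by new ones after the embryonic genome becomes active. Ribosomal protein genes are also the genes with the most processed pseudogenes in mammals, intronless copies made by reverse transcription, many of them with nearly the same sequence as the parent.

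Labels could be checked only in part. Nkx1-2 had 0 counts in all 8 sums and was thus not detected at this depth, and since morpholinos act after transcription its RNA level would not check the labels. All 10 embryo genes listed, such as Pou5f1 and Cdx2, had counts at both stages, and the list summed to 3453 and 3532 CPM (counts scaled to a common library total, 1e+06) in the control and 2868 and 3215 CPM in the NKX1-2 sums of the morula, and to 3229 and 3412 against 2844 and 2865 CPM in those of the blastocyst. Dppa5a alone held 2062 to 2765 CPM of each sum and was lower with the NKX1-2 morpholino in all 4 plates, whereas 6 of the 10 genes lay above 0 in the morula and 7 in the blastocyst, with median log2 fold changes of 0.17 and 0.22. Their part in the members' effects was not tested. Of the 10, Gata3, a trophectoderm factor, rose in the morula (log2 fold change 1.87, adjusted p = 0.0278, edgeR) and 0 passed in the blastocyst. Genes of oocyte, cumulus and granulosa cells summed to at most 49.7 CPM, with Fshr at 0 in all sums. In the morula sums the oocyte genes Zp3 (18.3 to 31.2 CPM) and Gdf9 (6.95 to 11.0 CPM) were above Cdx2 (1.39 to 6.67 CPM). They were below Pou5f1 (100 to 145 CPM). Genes of fibroblasts and blood summed to at most 12.1 CPM, with Col3a1, Dcn, Lum and Hbb-bt at 0.

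Coding sequence that recurs in other transcripts was measured first, because it decides which reads a counting step can place. For each of the 84 members with an annotated coding transcript, the longest coding sequence was split into all its stretches of 31 bases, and the stretches also present in the transcripts of another gene were counted (GENCODE M21, build GRCm38). The other 6 members, Rps4l, Rps3a2, Rps3a3, Rpl32l, Rpl6l and Rps12l1, are annotated as pseudogenes. In 31 members every stretch occurred in another gene, while Rpl3l shared none and Rpl8, a protein next to the peptidyl transferase centre, shared 11.1%. The stretches below are, for 5 members with low morula counts, the one carried by the most other genes. For 2 members with high morula counts they are the first one carried by no other gene. They were picked by opposite rules and do not compare the members. Rpl22, for example, shared 56.2% of its coding stretches, and Rpl3, at 97.4%, also had unshared ones. Positions are counted from the first base of the start codon.
Rps6, chromosome 4, coding bases 471 to 501, 15 other genes: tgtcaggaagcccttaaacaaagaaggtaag
Rpl21, chromosome 5, coding bases 97 to 127, 63 other genes: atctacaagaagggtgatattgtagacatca
Rpl23a, chromosome 11, coding bases 195 to 225, 28 other genes: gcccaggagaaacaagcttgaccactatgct
Rpl5, chromosome 5, coding bases 28 to 58, 7 other genes: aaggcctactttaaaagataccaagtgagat
Rpl3, chromosome 15, coding bases 527 to 557, 23 other genes: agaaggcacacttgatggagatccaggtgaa
Rpl8, chromosome 15, coding bases 1 to 31, 0 other genes: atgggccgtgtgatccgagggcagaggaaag
Rpl22, chromosome 4, coding bases 5 to 35, 0 other genes: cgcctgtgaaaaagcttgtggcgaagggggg

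A read that falls within one of the first 5 stretches cannot be told from a read of a copy. How such reads were counted is not stated in any source used, and levels are therefore described within a stage only. Rows named as pseudogenes of members, 304 in all, held 1.06 to 1.47% of the counts of the morula sums and 0.622 to 0.772% of those of the blastocyst sums.

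Rplp1, an acidic protein of the stalk that recruits elongation factors, had the highest level per kilobase of annotated exon at both stages. In the morula it stood at 12087 CPM per kb (range of the 4 sums 11240 to 12783), above Rpl41 (4590), a very short protein at the interface of the subunits, and Rps15 (4369). The ranges of Rpl41 and Rps15 overlapped. In all, 78 of the 89 members with a count overlapped in range with the member next below, so the order is resolved in few places.

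The lowest morula levels per kilobase were those of Rpl3l, the muscle form of Rpl3, at 1.56 CPM per kb, of Rpl6l at 6.92 and of Rpl5 at 8.25. Rpl5 is a core protein that binds the 5S RNA and, when free, the p53 regulator Mdm2, and it had 32.4 and 30.7 CPM in the control sums and 34.6 and 31.7 CPM in the NKX1-2 sums. The NKX1-2 value was the higher one in each plate, the groups overlapped, and the effect did not pass (log2 fold change 0.05, adjusted p = 0.959, edgeR). Rps6, the S6 kinase substrate, had 26.4 and 33.1 CPM in the control and 26.6 and 28.3 CPM in the NKX1-2 sums of the morula, with overlapping groups. Rpl11, the partner of Rpl5 in the 5S particle, had 107 to 121 CPM over the 4 morula sums, and Rpsa, a small subunit protein also known as the laminin receptor, had 325 to 369 CPM.

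In the blastocyst, Rplp1 stood at 13074 CPM per kb of exon (12058 to 14791), above Rps29 (6183), a zinc-binding protein of the small subunit, Rps15 (5308) and Rpl41 (4490). The range of Rps15 overlapped with those of Rps29 and Rpl41. At the low end, Rpl3l stood at 0.194, Rpl6l at 1.98 and Rps3a2 at 3.04 CPM per kb, all on few counts. Among members with a coding transcript, Rpl24, a late-joining protein of the large subunit, was the lowest after Rpl3l, with 31.4 and 35.6 CPM in the control and 31.9 and 37.4 CPM in the NKX1-2 sums of the blastocyst. Scaled by the longest coding transcript instead, Rplp1, Rpl41, Rps21 and Rps26 were among the first 5 in the morula and Rplp1, Rps29, Rpl41 and Rps26 in the blastocyst.

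**Figure D1:**
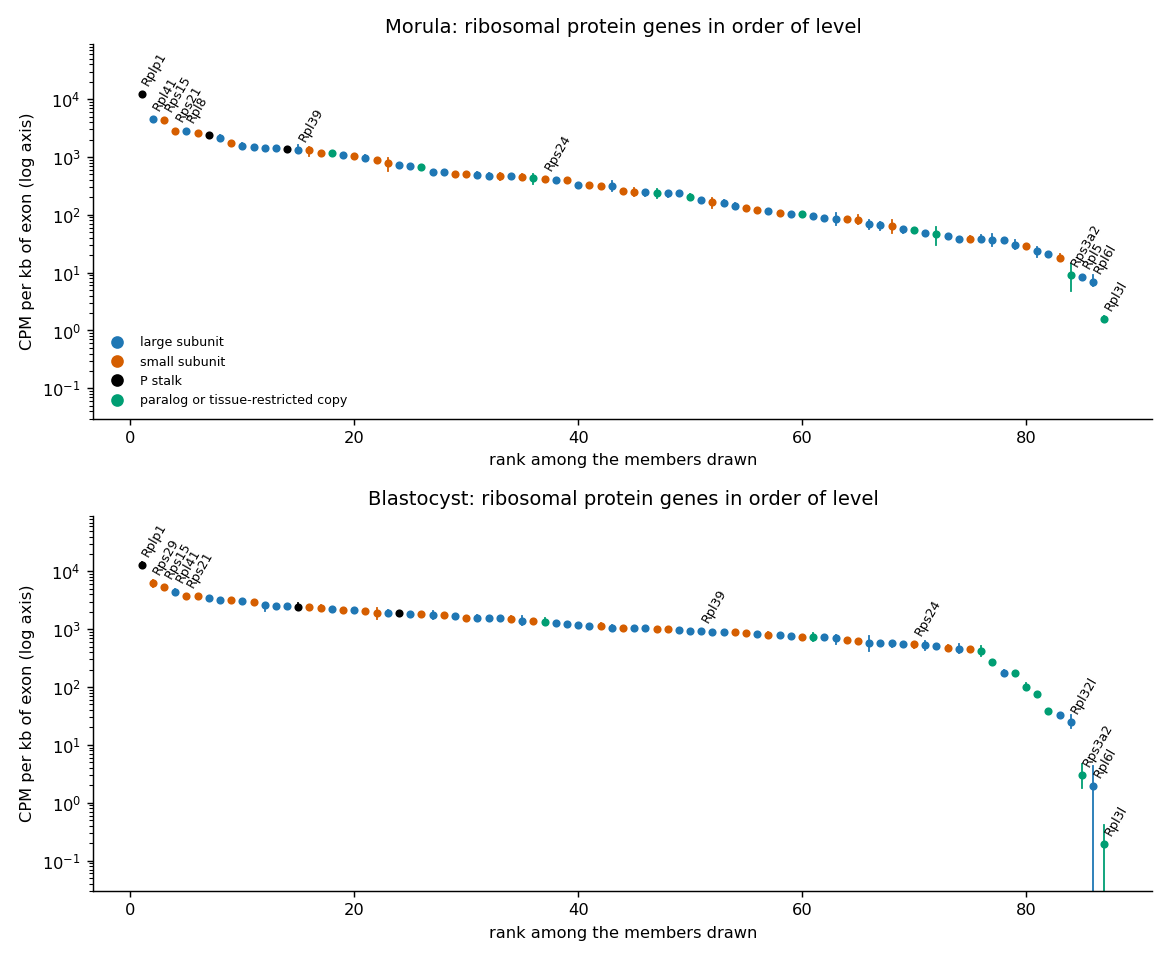
Level of 87 ribosomal protein genes in CPM per kb of annotated exon (log axis) against its rank within the morula (top) and the blastocyst (bottom). Points are means of the 4 sums of a stage, lines run from the lowest to the highest sum, and colours mark the groups; Rplp1 stands alone at the top of both orders, and Rpl3l is at the bottom of both.

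Within the morula, members whose whole coding sequence is shared had a lower median level than those with unshared stretches. The 31 fully shared members had a median of 195 CPM per kb of coding transcript, and the 53 partly shared ones a median of 1596. Among the 31, 19 lay under 200 CPM, against 5 of the 53. Exceptions ran against this order: Rpl39, a small protein lining the exit tunnel, and Rpl38 had a fully shared coding sequence. They stood at 3127 and 1803 CPM per kb. Over all their annotated transcripts, 9.06% and 31.6% of the stretches were shared. On this measure, fully shared members with low morula counts lay on either side of Rpl38. Rpl21 had 16.9%, Rpl5 26.9%, Rps6 45.0% and Rpl23a 52.3%. Across the 84 members, the shared percentage and the level per kb had a Spearman correlation of -0.60 in the morula, a description over genes of the same libraries. Within the blastocyst the corresponding medians were 3163 and 2938 CPM per kb and the correlation was -0.11. Whether reads in shared stretches were dropped, split or given to a copy was not tested.

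**Figure D2:**
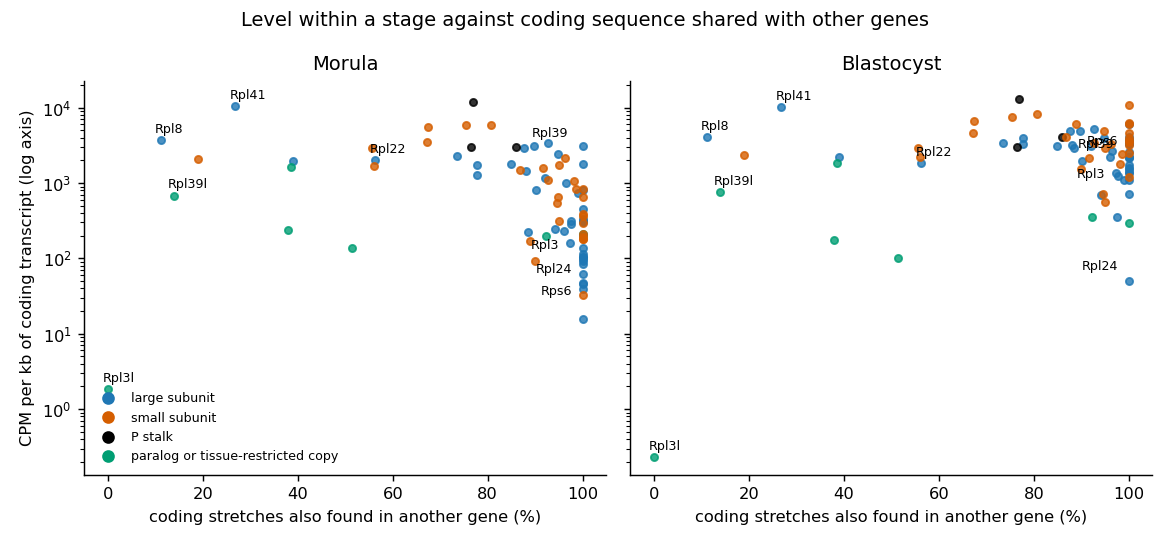
Level in CPM per kb of coding transcript (mean of the 4 sums, log axis) against the percentage of 31-base coding stretches that also occur in another gene, within the morula (left) and the blastocyst (right), for 82 of the 84 members. At 100% shared, morula levels run from 15.8 (Rpl5) to 3127 CPM per kb (Rpl39), and members with few shared stretches spread as well, with Rpl8 and Rpl41 near the top of both panels and Rpl39l, Rpl10l and Rpl3l lower.

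Paralogs were set beside their parents per kilobase of coding transcript and within a stage. In the morula, Rpl10l, a retrocopy of the X-linked Rpl10 known from the testis, stood at 240 CPM per kb (193 to 283) and Rpl10, which docks the subunits together, at 93.4 (86.3 to 101). Rps27l, a p53-inducible paralog, stood at 1640 CPM per kb (1615 to 1681) and Rps27 at 195 (148 to 246). In both pairs the coding sequence of the parent is fully shared with other genes. That of the paralog is not, with 37.9% and 38.6% of its coding stretches shared. Over all annotated transcripts of a gene the shares were 36.9% for Rpl10 and 23.4% for Rpl10l. They were 27.6% for Rps27 and 16.1% for Rps27l. The other parents were above their paralogs in the morula on this scale. Rpl39 stood at 3127 against 680 CPM per kb for Rpl39l, Rpl22 at 2015 against 197 for Rpl22l1, Rpl7 at 1745 against 138 for Rpl7l1, and Rpl36a at 308 against 213 for Rpl36al. This last order turned with the length used: per kb of annotated exon, Rpl36al stood at 201 (183 to 231) and Rpl36a at 89.8 (77.2 to 96.5). In the blastocyst all 7 parents stood above their paralogs without overlap in range, Rpl10 with 3360 CPM per kb against 173 for Rpl10l.

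Annotated starts of the members held pyrimidine runs more often than those of other genes. Of the 65 members with a start in the RefSeq promoter table (GRCm38.p6), 25 (38.5%) had a run of at least 8 bases C or T beginning within 10 bases of the start on the transcribed strand, against 11.8% of 26960 other genes. The windows below run from 10 bases before to 20 bases after the start, with the longest such run in capitals, for 3 members with a long run and for 2 of the members named in the blastocyst comparison.
Rplp2, chr7:141447641-141447670, plus strand: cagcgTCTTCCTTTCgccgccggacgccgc
Rps24, chr14:24490668-24490697, plus strand: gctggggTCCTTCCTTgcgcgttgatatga
Rps6, chr4:86857348-86857377, minus strand: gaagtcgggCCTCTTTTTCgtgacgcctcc
Rpl12, chr2:32961702-32961731, plus strand: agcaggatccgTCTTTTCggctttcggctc
Rplp0, chr5:115559457-115559486, plus strand: cgggTTTCgaggaccgcctggttctcctat

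These letters describe the annotated start only, and a window without a long run says nothing about the start used in the embryo.

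In the morula, the test of the NKX1-2 morpholino gave no call among the members: 0 of the 88 tested members were called, against 0.552% of all 10873 genes tested (edgeR quasi-likelihood test, Benjamini-Hochberg adjusted p under 0.05). DESeq2 and limma voom also called 0. At an unadjusted p under 0.05 there were 15 members, 13 of them lower, which is 17.0% of the members against 10.7% of all genes. Rpl3l was removed for low counts, and Rps12l1 had 0 counts in all sums. Members had small standard errors, with a median of 0.10 on the log2 scale against 0.28 over all genes.

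The small subunit group had 27 of 31 members below 0 and a median log2 fold change of -0.12, and the large subunit group 33 of 45 and -0.09. Over all 88 members, 68 (77.3%) lay below 0, against 50.7% of all genes, with a median of -0.10. The median over all genes was -0.00. By plate, 60 of 88 members were lower with the NKX1-2 morpholino in replicate 1 and 68 in replicate 2. This tilt was small without replicate 2, with 51 of 88 below 0 and a median of -0.03, against 0.01 over all genes. That fit rests on the same replicate 1 sums as the 60 of 88 above, with its own filter and scaling. In wells with Xist and no Y-linked counts the tilt was also small, with 49 of 86 and -0.02. With the sex class of wells as a term it was 62 of 86 (72.1%) and -0.09.

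Rps24, a small subunit protein mutated in Diamond-Blackfan anaemia, had 2728 and 2820 CPM in the control sums of the morula and 2406 and 2340 CPM in the NKX1-2 sums. Both NKX1-2 values were below both control values, yet the effect did not pass (log2 fold change -0.24, SE 0.08, adjusted p = 0.256, edgeR). Rps4l, an autosomal copy of Rps4x, had the lowest log2 fold change of the morula at -0.39, with 439 and 475 CPM in the control and 391 and 316 CPM in the NKX1-2 sums (SE 0.13, adjusted p = 0.230, edgeR). Its effect was uneven, at -0.17 in replicate 1 and -0.61 in replicate 2. Rpl15 (-0.35), needed for large subunit assembly, and Rpl39 (-0.30) came next among members with more than a few counts.

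At the other end, Rpl10a, a protein of the L1 stalk, had 138 and 155 CPM in the control and 199 and 189 CPM in the NKX1-2 sums of the morula, without overlap. Its fitted effect of 0.40 (log2, SE 0.12) had an adjusted p of 0.174 in edgeR. Rps12 (0.31), Rpl13a (0.18), a protein known from the GAIT translation-control complex, and Rpl28 (0.17) followed, with adjusted p of 0.307 to 0.728. Rps12 had 69.5 and 70.1 CPM in the control and 88.9 and 86.3 CPM in the NKX1-2 sums, but its log2 fold change became -0.15 once the counts of its pseudogene rows were added. Rpl28 was 0.41 in replicate 1 and -0.07 in replicate 2. In total, 6 members were above the control sums without overlap and 30 below, which is 6.82% and 34.1% of the members against 21.4% and 18.9% of all genes.

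The morula count of 0 depended on whether the blastocyst plates shared the fit. With the morula plates alone the same test called 6 members: Rpl10a higher, and Rpl39, Rps2, Rps24, Rps4l and Rps4x lower. The share of all genes called in that fit is not given, so these calls cannot be read as particular to the members. The fits without blastocyst replicate 1 or 2 left 1 blastocyst sum per morpholino, and their calls are not given.

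In the blastocyst, 2 of 88 members fell with the NKX1-2 morpholino, Rpl3 and Rpl12, against 0.727% of all genes called in either direction and 0.34% called lower. Rpl3 (chromosome 15, 80077791 to 80091868, minus strand, GRCm38) shapes the peptidyl transferase centre of the large subunit. It had 1941 and 2429 CPM in the control sums and 1341 and 1670 CPM in the NKX1-2 sums. Both NKX1-2 sums were below both control sums. The log2 fold change was -0.56 (SE 0.10, adjusted p = 0.0154, edgeR quasi-likelihood test), from 2185 ± 345 to 1505 ± 232 CPM (SD, n = 2 plates), and the plates gave -0.60 and -0.53.

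Rpl12 (chromosome 2, 32961559 to 32965345, plus strand) binds at the base of the stalk next to Rplp0. It had 2181 and 2296 CPM in the control and 1562 and 1709 CPM in the NKX1-2 sums of the blastocyst, again without overlap. The log2 fold change was -0.48 (SE 0.10, adjusted p = 0.0283, edgeR), with -0.54 and -0.42 in the plates. Both genes share nearly all of their coding sequence with other genes, Rpl3 97.4% and Rpl12 100%, so reads of copies cannot be told apart from their own where such stretches were counted. With the counts of pseudogene rows added, both were still called. DESeq2 called 0 members, as did the fit without the plate block and the fits of wells with Xist and no Y-linked counts or with the sex class of wells as a term. In these last fits, Rpl3 had -0.66 and -0.55 (adjusted p = 0.111 and 0.386) and Rpl12 -0.33 and -0.41 (adjusted p = 0.619 and 0.0507).

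Rplp0, the scaffold of the stalk that carries Rplp1 and Rplp2, did not pass at 0.33 (SE 0.08, adjusted p = 0.0816, edgeR). It had 3507 and 3562 CPM in the control and 4259 and 4795 CPM in the NKX1-2 sums of the blastocyst, so the groups did not overlap. Limma voom, the fit without a filter on low counts and the fit of the blastocyst plates alone called it higher as a further member. Its partners differed from it in direction or size: Rplp1 was at -0.20 (adjusted p = 0.296), with 7381 and 6479 CPM in the control and 6017 and 6219 CPM in the NKX1-2 sums, and Rplp2 was at 0.01 (adjusted p = 0.969). The P stalk group as a whole had 2 of 3 members above 0.

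Rpl39l, a paralog of Rpl39, had the highest log2 fold change of the blastocyst members at 0.35 (SE 0.11, adjusted p = 0.157, edgeR). It had 526 and 543 CPM in the control and 683 and 708 CPM in the NKX1-2 sums, which did not overlap. Rpl10 (0.32), the low-count Rpl32l (0.21) and Rps19 (0.20), a small subunit protein also mutated in Diamond-Blackfan anaemia, followed below Rplp0. Among members with lower values that did not pass, Rps4l was at -0.33, Rpl10a at -0.30 and Rps24 at -0.27 (adjusted p = 0.284, 0.215 and 0.151). Rps24 had 3768 and 3656 CPM in the control and 3273 and 3019 CPM in the NKX1-2 sums of the blastocyst, and its plates gave -0.27 and -0.26. Rps3a2, with -0.97, rested on 1.42 to 3.69 CPM.

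The other paralogs, the 5S-linked proteins, Rps6 and Rpsa did not pass at either stage. In the morula and then the blastocyst, the log2 fold change of Rpl36al was 0.16 and 0.14, that of Rpl22l1 -0.02 and -0.21, that of Rpl7l1 -0.08 and -0.24, that of Rps27l 0.01 and -0.13, that of Rpl10l -0.15 and 0.02, and that of Rps3a3 -0.02 and -0.04. Their standard errors ran from 0.10 to 0.27. Rpl5 was at 0.05 and -0.19, Rpl11 at 0.04 and 0.06, Rps6 at -0.13 and -0.02, and Rpsa at 0.09 and 0.04.

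Over all 88 members of the blastocyst, 59 (67.0%) lay below 0, against 50.2% of all genes, and the median was -0.07. There were 20 members at an unadjusted p under 0.05, 22.7% against 13.7% of all genes. By plate, 58 members were lower in replicate 1 and 62 in replicate 2. The groups did not overlap in 28 members below (31.8% against 18.1%) and 14 above (15.9% against 20.9%). In wells with Xist and no Y-linked counts the median was -0.03, with 50 of 86 below 0, and with the sex class as a term it was -0.04, with 55 of 86 (64.0%). With 1 blastocyst plate left out, each morpholino had 1 blastocyst sum, so the test took its spread from the morula plates. The calls of these fits are therefore not given. Rpl3 and Rpl12 had log2 fold changes below 0 in both.

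**Figure D3:**
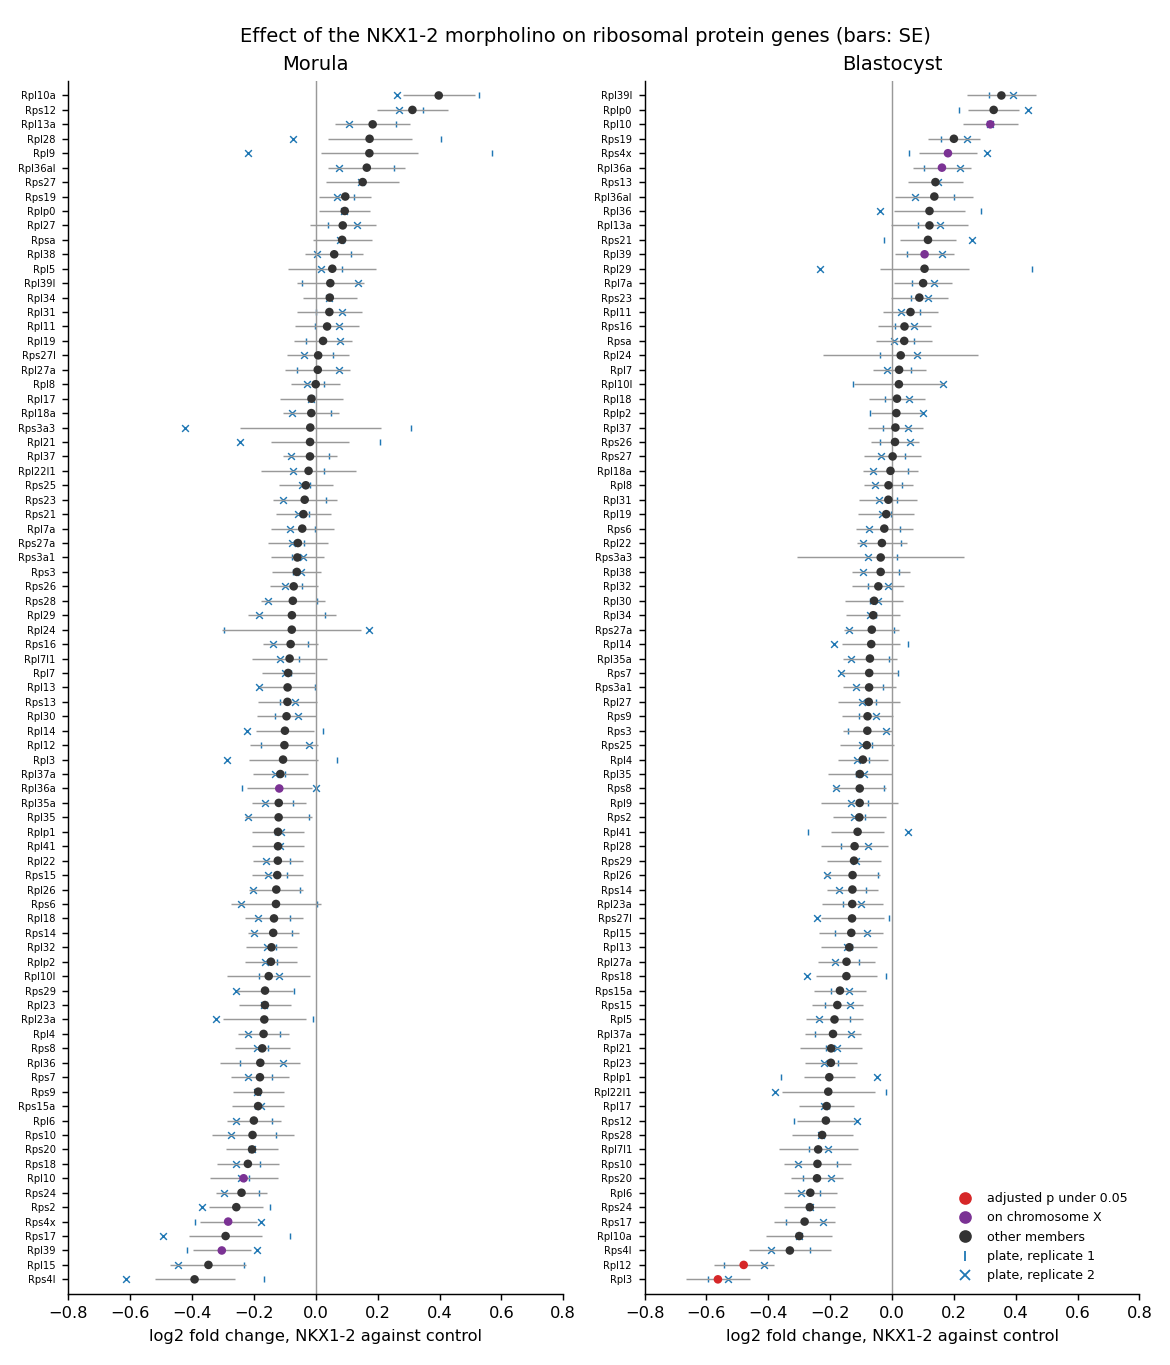
Log2 fold change of the NKX1-2 morpholino against the control for 83 tested members, ordered within the morula (left) and the blastocyst (right). Points are the fitted effect with its SE and blue marks the 2 plates; Rpl6l, Rps3a2 and Rpl32l, which have few counts, are not drawn. Most members lie within 0.4 of 0, most points are left of 0, and Rpl3 and Rpl12 are the called members (red, blastocyst).

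Across both stages, 33 of the 88 members (37.5%) were lower with the NKX1-2 morpholino in all 4 plates, against 11.8% of all genes, and 5 (5.68% against 12.2%) were higher in all 4: Rpl13a, Rpl36al, Rplp0, Rps19 and Rpsa. These members share their libraries, so the counts are not independent observations. The test of the difference between the stages called 0 of 88 members, against 0.0184% of all genes (0.0092% in each direction), with 7 (7.95%, against 6.43%) at an unadjusted p under 0.05. DESeq2 and limma voom called 0 as well. Without blastocyst replicate 1 or 2, 1 blastocyst sum per morpholino was left, so the calls of these fits are not given.

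The share of all counts that fell on the members was 10.9% and 10.7% in the control sums of the morula and 10.4% and 10.0% in the NKX1-2 sums. In the blastocyst it was 21.6% and 22.4% in the control and 21.6% and 21.4% in the NKX1-2 sums. The 4 plate differences were all below 0, at -0.565 and -0.694 percentage points in the morula and -0.0598 and -1.01 in the blastocyst. With every well included, the smallest of them, in blastocyst replicate 1, became 0.0316 points. Single wells spread far more widely than this: control wells of the morula ran from 8.08 to 13.7%, with medians of 10.9% and 10.6%, and control wells of the blastocyst from 16.9 to 31.1%, with medians of 21.6% and 22.4%. The medians of the NKX1-2 wells were 10.3% and 10.2% in the morula and 22.1% and 21.5% in the blastocyst, so in blastocyst replicate 1 the median went the other way. In wells with Xist and no Y-linked counts, the morula differences were 0.266 and -0.453 points and the blastocyst ones -0.108 and -0.0979.

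The sex class of the wells moved with the morpholino. Wells were classed by their own counts of Xist, the RNA that coats the inactive X chromosome, and of the Y-linked genes Eif2s3y, Ddx3y and Kdm5d; these classes are not labels. In morula replicate 1, 25 of 48 control and 10 of 48 NKX1-2 wells had Xist only, and in replicate 2 it was 27 of 48 and 23 of 47. Blastocyst replicate 1 had 15 of 43 and 35 of 47 such wells, and replicate 2 had 6 of 43 and 20 of 44. In blastocyst replicate 2, a further 22 NKX1-2 and 19 control wells had both kinds of counts. Xist-only wells were thus a smaller share of the NKX1-2 than of the control wells in both morula plates and a larger share in both blastocyst plates.

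The 4 members on the X chromosome followed this division. Rpl10 (74270812 to 74273135), Rpl36a (134585654 to 134588062), Rpl39 (37082520 to 37085402) and Rps4x (102184941 to 102189394) were higher in Xist-only than in Y-only wells in all 4 pairs of sums at either stage. The median ratio was 1.63 and 1.73 for Rpl10 in the morula and the blastocyst, 1.72 and 1.70 for Rpl36a, 1.79 and 1.77 for Rpl39, and 1.68 and 1.62 for Rps4x. Rpl39, for example, had 2674, 2694, 2227 and 2050 CPM in the Xist-only sums of the morula and 1591, 1360, 1257 and 1130 CPM in the Y-only sums. All of its Xist-only values were above all of its Y-only values.

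In a fit of 16 sums by plate, morpholino and sex class, added after the data were seen, the class term called exactly these 4 of 86 tested members at each stage, all of them higher (edgeR). Of 6783 genes, 1.81% were called in the morula (1.36% higher, 0.457% lower) and 0.767% in the blastocyst (0.722% higher, 0.0442% lower). The other 82 members are autosomal and 0 were called, with medians of -0.07 and -0.02. The log2 differences were 0.85 (SE 0.11) for Rpl39, 0.78 (SE 0.14) for Rpl36a, 0.71 (SE 0.10) for Rps4x and 0.58 (SE 0.15) for Rpl10 in the morula, and 0.86, 0.81, 0.79 and 0.79 in the same order in the blastocyst. The median over 200 X-linked genes was 0.65 in the morula and 0.61 in the blastocyst, and 72 and 33 of them were called higher. The 16 sums came from 267 wells and held 77753 to 1395292 counts, and the smallest class had 2 wells. The morula call of Rpl10 was lost in 4 of 8 alternative settings: DESeq2 (adjusted p = 0.0509), limma voom (0.111), and the fits without morula replicate 1 (1) and without morula replicate 2 (0.128) in edgeR. Without morula replicate 2 the class term called 2 members in the morula, Rpl39 and Rps4x, and without blastocyst replicate 1 it called 2 in the blastocyst, Rpl10 and Rps4x. Without blastocyst replicate 2, Rpl10a and Rpl10l were further calls in the morula. The shares of all genes called in these alternative fits are not given.

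**Figure D4:**
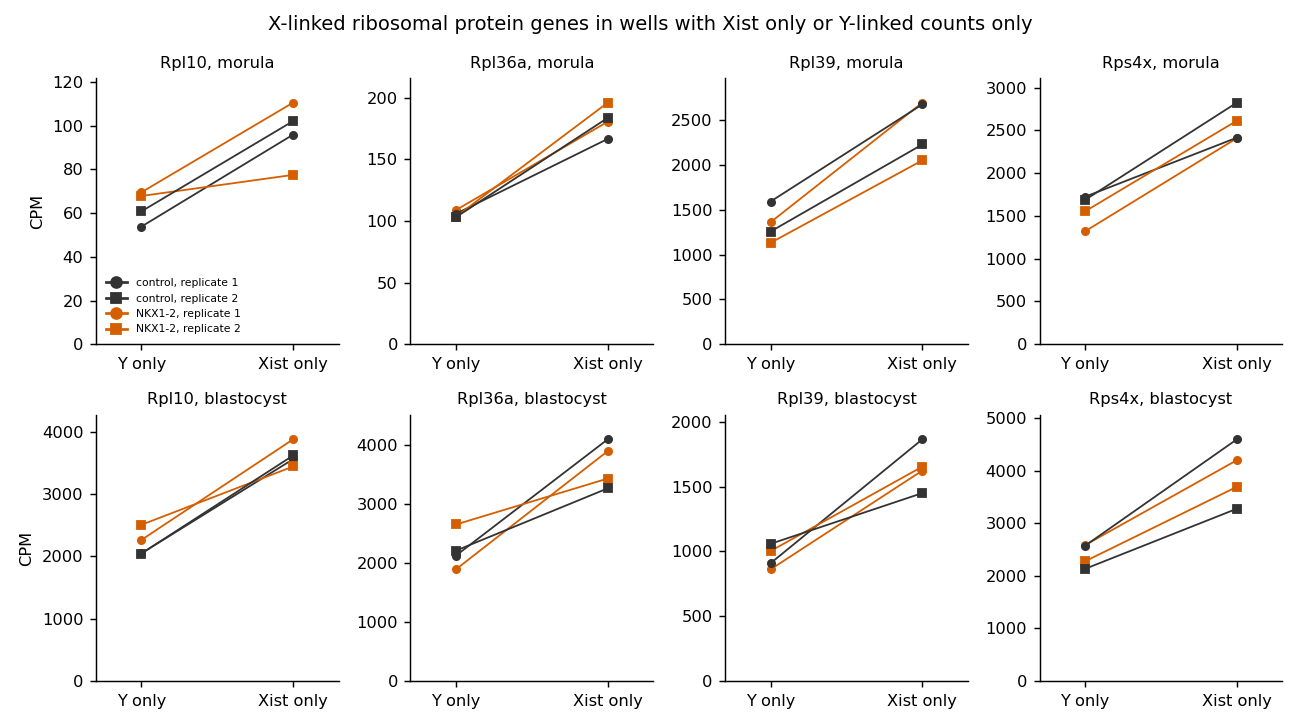
Levels in CPM of the 4 X-linked ribosomal protein genes in sums of wells with Y-linked counts only and with Xist only, joined within a plate and morpholino, for the morula (top) and the blastocyst (bottom). All 32 lines rise from Y only to Xist only, in control and in NKX1-2 sums alike.

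The NKX1-2 effects of the X-linked members had the sign of the difference in Xist-only wells. In the morula they were -0.23 for Rpl10, -0.12 for Rpl36a, -0.30 for Rpl39 and -0.28 for Rps4x, and in the blastocyst 0.32, 0.16, 0.11 and 0.18. None passed. Within Xist-only wells the blastocyst effects were -0.00, -0.03, -0.04 and -0.01 in the same order (SE 0.14 to 0.15), and the morula effects -0.11, 0.12, -0.04 and -0.04. With the sex class as a term they were 0.05, -0.05, -0.13 and -0.04 in the blastocyst (SE 0.10 to 0.12) and 0.03, 0.07, -0.13 and -0.16 in the morula (SE 0.10 to 0.15).

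Spread between wells was measured after thinning each well to 10000 counts, where a variance equal to the mean is what counting error alone gives. Among members with a mean of at least 5 counts per well, the median variance over mean was 1.54 to 1.82 in the 4 morula groups and 1.86 to 1.93 in the 4 blastocyst groups. Other genes of like mean had 1.84 to 1.93 and 2.06 to 2.25. In each of the 8 groups the members' median was below that of genes of like mean. Many single members were not below their like-mean value. From 21 of 44 to 28 of 45 were below it in the morula groups, and from 43 of 77 to 55 of 77 in the blastocyst groups. Among members with a mean of at least 5 counts over the 4 groups of a stage, Rps14, an assembly protein of the small subunit, had the lowest morula ratio at 1.13. Rps9, a core protein of the same subunit, had the lowest of the blastocyst at 1.09. Some members with a lower mean had lower ratios.

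A few members spread widely. In the morula, Rps2, a small subunit protein at the messenger RNA entry, had a variance over mean of 5.51 (3.02 to 7.13 over the 4 groups), and its thinned count in control wells of replicate 1 ran from 0 to 42 with a median of 19. Rps18 stood at 3.48 and Rpl22, a protein outside the ribosome's core, at 3.35. The X-linked Rpl39 and Rps4x stood at 3.82 and 3.23. Without the highest well of each group, Rps2 still had 5.05 and Rps18 3.05. In the blastocyst, Rplp1 had the widest spread at 5.64, but 1 control well of replicate 2 held 211 counts against a median of 61, and without the highest wells the value was 3.19. Rps29 (4.53, and 4.03 without the highest wells) and Rpl41 (4.33 and 3.87) did not rest on such wells, and the X-linked Rpl10, Rps4x and Rpl36a followed at 3.72, 3.64 and 3.31.

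**Figure D5:**
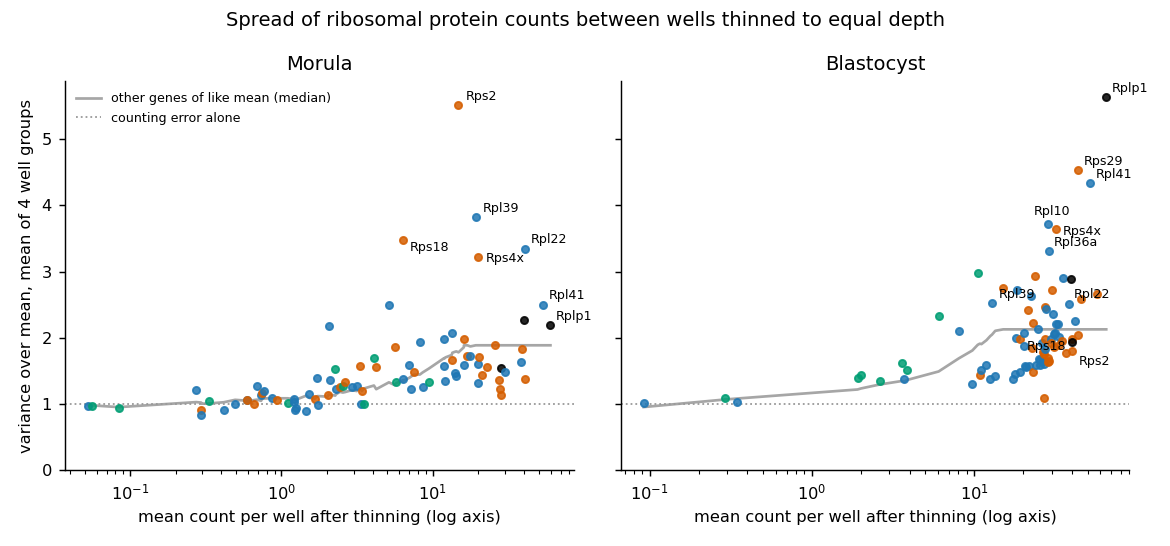
Variance over mean of thinned counts between wells (mean of the 4 plate and morpholino groups) against the mean count per well (log axis) for drawn members with a mean of at least 0.05, within the morula (left) and the blastocyst (right). The grey line is the median of other genes of like mean and the dotted line is counting error alone; most members lie near or below the grey line, with Rps2, Rps18, Rpl22, Rplp1, Rps29, Rpl41 and X-linked members above it.

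Genes linked to ribosomal proteins gave few calls. Among other TOP messenger RNAs, 1 of 22 tested genes fell in the morula, against 0.276% of all genes called lower and 0.552% in either direction. It was Eif3e, a subunit of the initiation factor that loads the small subunit, with 260 and 227 CPM in the control and 159 and 146 CPM in the NKX1-2 sums (log2 fold change -0.69, SE 0.13, adjusted p = 0.0265, edgeR). In the blastocyst it was at -0.52 (adjusted p = 0.0934) and did not pass. Of the translation elongation factors (8 tested), the TOP and mTORC1 regulators (16), the chaperones and sensors of free ribosomal proteins (21) and the ribosomal proteins whose symbols fall outside the rule (2), 0 passed at either stage. Of the markers of other cell types, 3 and 1 genes could be tested and 0 passed. The other TOP messenger RNAs had 17 of 22 genes (77.3%) below 0 and a median of -0.13 in the morula, and 14 of 22 (63.6%) and -0.09 in the blastocyst, beside the 77.3% and -0.10 and the 67.0% and -0.07 of the members. The medians of the 4 lists of translation and ribosome genes without a call lay between -0.06 and 0.06 in the morula and between -0.06 and 0.13 in the blastocyst. These lists are not separate from the TOP list. It also holds the elongation factors Eef1a1, Eef1b2, Eef1d, Eef1g, Eef2 and Tpt1, Fau and Rack1 from outside the rule, and the chaperone Nap1l1.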

How the data were processed

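The submitters deposited, for each plate, a matrix of whole-number counts per gene and well; per the submitters' processing notes the authors used TopHat2 with GRCm38/mm10. Not given in the sources used here are the counting tool, its use of strand, its handling of reads with several matches, and whether it counted reads or molecules. Per the labels' protocols, libraries were made from lysed material by polyA capture with TruSeq chemistry, while the description names 10x Genomics. Wells held 6966 to 119729 counts each. Each well was assigned to the control or the NKX1-2 morpholino by its barcode, from the submitters' list of barcodes. The titles name even wells for the control and odd wells for the NKX1-2 morpholino, but well numbers were not used.

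Counts of wells with at least 2000 detected genes were summed per plate and morpholino. The 8 sums were fitted in 1 model with edgeR 4.0.16 (robust quasi-likelihood test, TMM factors 0.889 to 1.12, filterByExpr, plate as a block), with Benjamini-Hochberg adjustment over 10873 genes and a threshold of 0.05. A block of 344 neighbouring rows, U2af1 to V1rg10, has no morula count and was left out; 0 members are in it. Fold changes are log2, NKX1-2 over control, and CPM are counts scaled to a total of 1e+06 per sum. Effects by plate used a prior count of 2. On simulated counts with 200 changed genes, the test recovered 61% of 2-fold and 87% of 4-fold changes in the morula and 39% and 75% in the blastocyst. Pairing of the 2 morpholinos comes from the plate; deviations of a plate's sums from the group means correlated at 0.257 in the morula and -0.000704 in the blastocyst. Alternatives used DESeq2 1.42.0, limma 3.58.1 (voom), other scalings, filters and sets of wells, sums with pseudogene rows added, and each plate left out. Wells were thinned to 10000 counts for the spread, and like-mean values are medians of the 100 other genes of nearest mean. For the members with the highest means these were the 100 highest other genes.

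Genes were matched by symbol to GENCODE M21 (54510 of 55453, 98.3%). Start windows are from RefSeq. Members and lists were chosen with earlier results of these data known. Named were all members called, the 5 highest and 3 lowest in level and the 4 largest effects in each direction per stage, the paralog and X-linked members, and Rplp0, Rplp1, Rplp2, Rpl3, Rpl12, Rps24, Rpl5, Rpl11, Rps6 and Rpsa. Other members were named for shared sequence, spread or an effect after their values were seen. Results of some genes are not reported here, and 2 members are not drawn in the figures.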

Additional observations from a re-analysis of the deposited data

Results flagged for a closer look

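For 5 members with an unadjusted p under 0.05 for the difference, the NKX1-2 effect had opposite signs in both plates of the morula and both plates of the blastocyst. The blastocyst effect minus the morula effect on the log2 scale was 0.55 (SE 0.14) for Rpl10, 0.41 (SE 0.13) for Rpl39 and 0.46 (SE 0.13) for Rps4x, all X-linked, and -0.70 (SE 0.16) for Rpl10a and -0.53 (SE 0.15) for Rps12. None passed over all genes, with adjusted p of 0.361, 0.551, 0.482, 0.335 and 0.482 in that order (edgeR). With the sex class of wells as a term the differences were 0.018, 0.0029 and 0.12 for the X-linked members and -0.52 and -0.49 for Rpl10a and Rps12. In total 12 of 88 members (13.6%) had such opposite signs, against 11% of all genes. An unadjusted p under 0.05 for the difference (edgeR) was found in 7.95% of the members and 6.43% of all genes. The share of all genes that met both conditions is not given, so the 5 members are a description only.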

How the results depend on the processing

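Of the morula count of 0 called members, the fit of the morula plates alone gave 6, and leaving out 1 plate gave 0 to 11. The blastocyst count of 2 became 0 with DESeq2, 0 with no replicate block, 0 in Xist-only wells and 0 with the sex class as a term, and 3 to 10 with 1 plate left out. The stage difference gave 0 to 5 with 1 plate left out. The sex class gave 2 to 6 members in the morula and 2 to 4 in the blastocyst. Without the plate pairing (no replicate block) the morula and difference counts were 0 and the sex class counts 4. The cause of these changes was not tested. In Xist-only wells the difference in summed share became 0.266 and -0.453 points in the morula plates and -0.0979 in blastocyst replicate 2. Of the first 5 in level, 3 stayed in the morula and 2 in the blastocyst without length scaling, and 3 and 3 by coding transcript. The median variance over mean of all members, 1.35 and 1.79, became 1.17 and 1.43 at 5000 counts, and 1.20 and 1.57 without the highest well.

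Some log2 fold changes turned sign, all without passing. In Xist-only wells, the morula values became 0.44 for Rpl3, 0.12 for Rpl36a and 0.063 for Rplp1, the blastocyst values -0.0036 for Rpl10, -0.032 for Rpl36a, -0.042 for Rpl39 and -0.011 for Rps4x, and the stage differences -0.15 for Rpl36a and -0.00087 for Rpl39. With the sex class as a term, they became 0.027 for Rpl10 and 0.067 for Rpl36a in the morula, 0.028 for Rpl28, -0.054 for Rpl36a, -0.13 for Rpl39 and -0.043 for Rps4x in the blastocyst, and -0.12 for Rpl36a in the difference. With pseudogene rows added, Rpl28 and Rps12 became -0.11 and -0.15 in the morula. Rps3a2, on few counts, became 0.0037 with DESeq2 and 0.027 in thinned wells. With 1 plate left out, the morula ranges were -0.067 to 0.44 for Rpl28, -0.28 to 0.10 for Rpl3, -0.21 to 0.0080 for Rpl36a, -0.016 to 0.14 for Rpl39l and -0.69 to 0.76 for Rps3a2. The blastocyst ranges were -0.31 to 0.57 for Rpl32l, -0.072 to 0.11 for Rplp2 and -1.41 to 5.12 for Rpl6l. Rpl6l has a control sum at 0, so its fitted value is no bound, and it became -0.011 with no replicate block. The depth limits Rpl6l, Rps3a2 and Rpl32l, which held few counts, and Rpl3l, which was not tested.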
